A study of Mus musculus with 12 samples.

Results

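Cells read immunoglobulin G (IgG) through receptors for its constant part, the Fc gamma receptors. Described here are 6 mouse genes of this system in the stromal vascular fraction (SVF) of inguinal fat. They were taken by name from the deposited tables and are 6 of the 55536 genes listed there. Fcgr1, Fcgr3 and Fcgr4 encode the activating receptors, Fcgr2b the inhibitory receptor, Fcer1g the signalling chain that the activating receptors share, and Fcgrt the neonatal Fc receptor FcRn. All 6 passed the filter on low values, set at 10 or more normalized counts in 4 or more of the 8 libraries of a comparison.

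The activating receptors bind IgG on the cell surface but cannot signal alone. They sit with the gamma chain made by Fcer1g, whose activation motif (ITAM) is phosphorylated by Src family kinases and then recruits the kinase Syk, which leads to phagocytosis, oxidant release and cytokine output. Fcgr2b carries an inhibitory motif that recruits the phosphatase SHIP-1 (Inpp5d) and sets a brake on the same cells. Fcgr1 binds single IgG molecules with high affinity, whereas the other surface receptors mostly bind IgG in immune complexes. FcRn pairs with beta-2 microglobulin, holds IgG in acidic endosomes and returns it to the blood or the tissue fluid, and it works in macrophages and endothelial cells. In fat depots macrophages are the best known carriers of the whole set. B cells express Fcgr2b, mast cells use Fcer1g in the IgE receptor, and NK cells use Fcgr3 and Fcer1g.

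RNA was read from the SVF, the cells left after floating adipocytes are taken out of a digested depot, of male mice on a mixed C57BL6/J-129SV background housed at room temperature, with 4 libraries in each of 3 groups. The 12-month Pdgfrβ-KO mice (labelled PdgfrB Knock Out) carried floxed Pdgfrb alleles and a tamoxifen-induced Cre driven by the smooth muscle actin promoter (Sma-CreERT2), so deletion was limited by design to cells in which that promoter had been active. The 12-month and 2-month controls are labelled wild type. The study's account of the comparison with Pdgfrβ-KO calls its 12-month controls Sma-Control, its name for Sma-CreERT2 reporter mice with intact Pdgfrb, so the label does not mean that Cre was absent. The sources used here do not say whether the mice sequenced as controls received tamoxifen. The libraries are labelled as biological replicates, and the 12-month controls serve both in the comparison with Pdgfrβ-KO mice of the same age and in the comparison with 2-month controls.

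The values are normalized counts, that is, reads per gene divided by the size factor of the library and rounded. They summed to 19.6 to 21.9 M in Pdgfrβ-KO libraries, 19.9 to 20.6 M in 12-month controls and 20.3 to 21.3 M in 2-month controls. The counts behind them, estimated from the steps left by the division, were 13.78 to 19.97 M in Pdgfrβ-KO libraries, 20.97 to 29.01 M in 12-month controls and 21.39 to 24.86 M in 2-month controls. Pdgfrb itself had 1882, 2145, 1707 and 1749 normalized counts in Pdgfrβ-KO libraries, against 3000, 4380, 3258 and 2399 in 12-month controls. All Pdgfrβ-KO libraries lay below all controls (log2 fold change −0.77 ± 0.17 (SE), limma adjusted p = 0.016). As a check of the tissue, the leukocyte gene Ptprc was read at 9839 or more in every library, and the fibroblastic progenitor, endothelial and macrophage markers were all present in every library.

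Of the 6 genes, 4 lie in 1 cluster. In GRCm38 with the GENCODE vM21 annotation, Fcgr2b (ENSMUSG00000026656, minus strand) spans chr1:170958617-170976547, Fcgr4 (ENSMUSG00000059089, plus strand) spans chr1:171018920-171029761, Fcgr3 (ENSMUSG00000059498, minus strand) spans chr1:171051174-171064935 and Fcer1g (ENSMUSG00000058715, minus strand) spans chr1:171229572-171234365. Together they cover 275.7 kb. Fcgr1 (ENSMUSG00000015947, minus strand) spans chr3:96282909-96293969, and Fcgrt (ENSMUSG00000003420, minus strand) spans chr7:45092990-45103851. All 6 are annotated as protein coding.

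The inhibitory receptor and its activating neighbour Fcgr3 are close relatives in sequence, which bears on how well reads can tell them apart. Over 782 aligned coding bases 87.5% were equal. The longest coding stretch that is identical in both genes runs from base 278 to 406 of the 1020 coding bases of Fcgr2b and from base 263 to 391 of the 801 coding bases of Fcgr3. It is shown because a read that falls wholly within it fits both genes equally well. In the genome it spans an intron in each gene, between chr1:170966674-170968081 in Fcgr2b and chr1:171054167-171057792 in Fcgr3.
Fcgr2b and Fcgr3: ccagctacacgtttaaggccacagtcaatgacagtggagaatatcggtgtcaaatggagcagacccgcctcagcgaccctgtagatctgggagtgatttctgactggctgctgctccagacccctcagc
Of the distinct stretches of 50 bases in the Fcgr3 transcripts, 166 of 1733 (9.58%) also occur in Fcgr2b, where they are 2.92% of 5685. The transcripts of Fcgr1, Fcgr4, Fcer1g and Fcgrt shared 0 such stretches with any other gene. How the authors' counting treated reads that fit more than 1 gene is not given in the sources used here, so part of the Fcgr2b and Fcgr3 values cannot be assigned with certainty. The annotated gene Gm38204 overlaps Fcgr2b on the opposite strand, and whether the counting used strand is not given either.

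The bases before the start sites were read from the RefSeq promoter table (GRCm38.p6). The motifs searched, on both strands, were the PU-box GAGGAA, the core bound by the myeloid factor PU.1 (Spi1), and the interferon-gamma activation site TTCNNNGAA. The windows of 250 bases before and 50 after the start held the PU-box once each in Fcgr1, Fcgr3 and Fcgr4 and held none in Fcgr2b, Fcer1g and Fcgrt, and 28.3% of 32851 RefSeq windows of the same length held it. The activation site was found in the Fcgr1 window only, against 8.3% of all windows. The 3 activating receptors are shown with the 150 bases that end at the start site, the motifs in capitals, from chr3:96293970-96294119 (Fcgr1, minus strand), chr1:171059404-171059553 (Fcgr3, minus strand) and chr1:171018776-171018925 (Fcgr4, plus strand).
Fcgr1: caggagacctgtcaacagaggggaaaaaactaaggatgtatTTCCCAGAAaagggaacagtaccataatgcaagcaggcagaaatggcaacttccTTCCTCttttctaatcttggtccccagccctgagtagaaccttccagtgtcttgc
Fcgr3: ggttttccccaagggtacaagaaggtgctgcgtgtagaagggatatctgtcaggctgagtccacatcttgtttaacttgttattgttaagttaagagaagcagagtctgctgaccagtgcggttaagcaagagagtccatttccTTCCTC
Fcgr4: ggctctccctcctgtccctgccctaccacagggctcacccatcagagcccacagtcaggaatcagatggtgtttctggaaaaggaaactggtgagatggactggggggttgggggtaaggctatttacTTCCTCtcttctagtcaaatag
In each of these the PU-box reads as its reverse complement, TTCCTC. In Fcgr1 the activation site begins 109 bases and the PU-box 55 bases before the start site, in Fcgr4 the PU-box begins 22 bases before it, and in Fcgr3 it begins 6 or 15 bases before it, depending on which of the RefSeq start sites is taken. A match of letters describes the window and is no evidence of binding.

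Per kilobase of annotated exon, the 6 genes kept the same order of mean level in all 3 groups. Fcgrt came first, followed by Fcer1g, Fcgr3, Fcgr2b, Fcgr1 and Fcgr4. In normalized counts per kilobase, Fcgrt averaged 7980 ± 2840 in Pdgfrβ-KO libraries, 4132 ± 665 in 12-month controls and 2614 ± 194 in 2-month controls (SD, n = 4 each). Fcgr4 averaged 76.4 ± 46.4 in Pdgfrβ-KO libraries, 39.2 ± 14.5 in 12-month controls and 17.1 ± 2.48 in 2-month controls. Neighbours in this order did not overlap among Pdgfrβ-KO libraries. In 12-month controls Fcgr1 and Fcgr4 overlapped, and in 2-month controls Fcer1g overlapped with Fcgr3 and Fcgr3 with Fcgr2b.

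**Figure D1:**
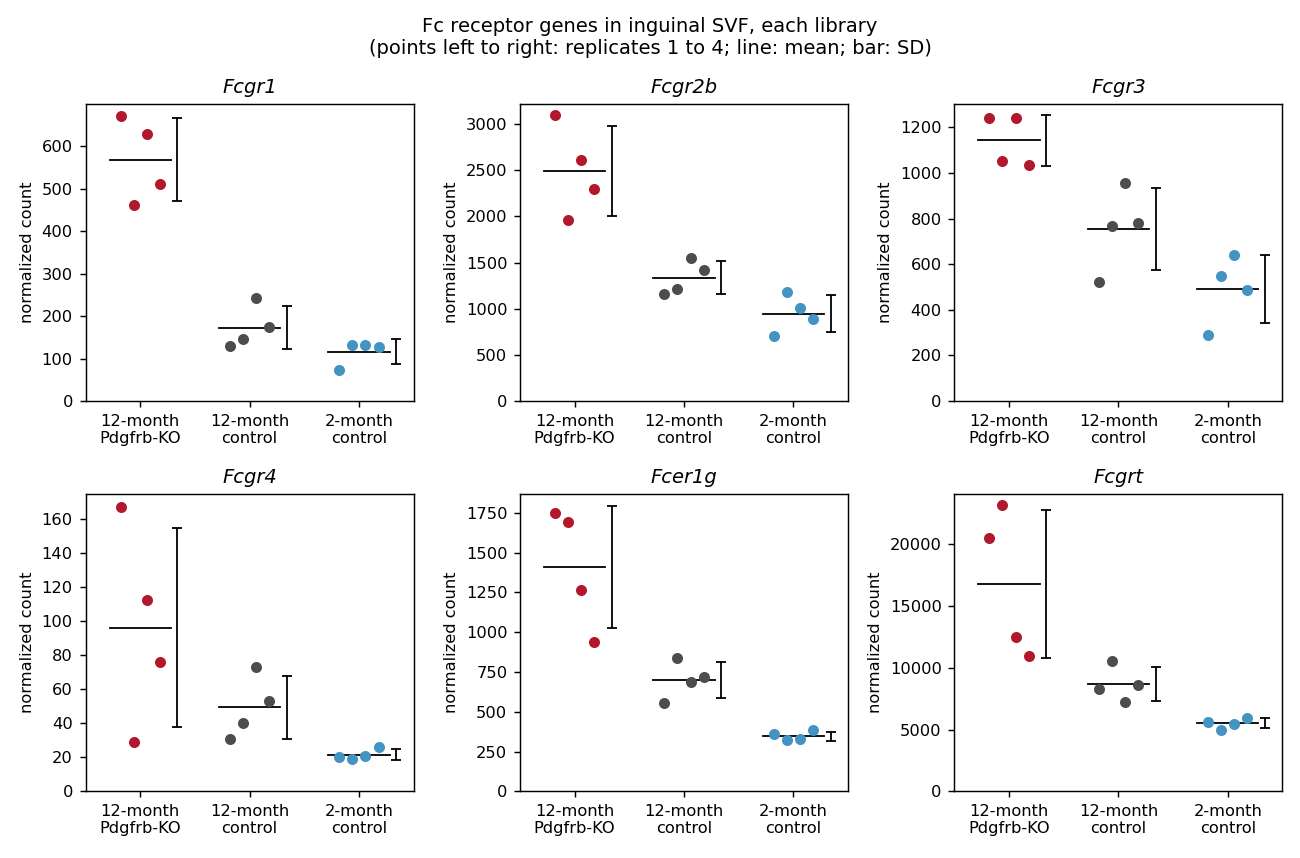
Normalized counts (y axis, linear, from 0) of the 6 genes in each of 4 libraries of 12-month Pdgfrβ-KO, 12-month control and 2-month control SVF (x axis); the line is the mean and the bar the SD. For every gene except Fcgr4, the 4 Pdgfrβ-KO libraries sat above all 12-month controls, and the lowest Pdgfrβ-KO value of Fcgr4 was 29.

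The first question was how these genes differed between Pdgfrβ-KO and control SVF at 12 months. Of the 6 genes, 5 were higher in Pdgfrβ-KO SVF than in 12-month controls, 0 were lower and Fcgr4 did not pass the test. The test was limma on log2(normalized count + 1), two-sided, called at a Benjamini-Hochberg adjusted p under 0.05 over all tested genes. Of 16344 tested genes, 4.96% were called higher. In 5 of the 6, all Pdgfrβ-KO libraries lay above all 12-month controls, which was so for 9.05% of tested genes. The median log2 fold change of the 6 was 0.89, against −0.01 over all tested genes. In bulk SVF, more cells that carry a receptor and more of its RNA per cell cannot be told apart.

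Fcgr1, the high affinity receptor, had the largest difference of the 6. It had 258.8, 178.4, 243 and 197.4 normalized counts per kilobase of exon in Pdgfrβ-KO libraries, against 49.8, 56.4, 93.9 and 67.2 in 12-month controls. Every Pdgfrβ-KO library stood far above the highest control. The mean normalized counts, not divided by length, were 568 ± 97.7 in Pdgfrβ-KO and 173 ± 50.2 in controls (SD, n = 4 each), a ratio of 3.28, with a log2 fold change of 1.74 ± 0.20 (SE, 95% interval 1.29 to 2.18, limma adjusted p = 0.000752).

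Fcgr3, a low affinity activating receptor of macrophages and NK cells, had 1241, 1054, 1240 and 1037 normalized counts in Pdgfrβ-KO libraries, against 520, 766, 956 and 779 in 12-month controls. The groups did not overlap, but the gap was narrow beside the spread of the controls. The log2 fold change was 0.63 ± 0.17 (95% interval 0.26 to 0.99, limma adjusted p = 0.0408). The call was lost, with an adjusted p of 0.0567 to 0.106, when any of 12-month control replicates 1, 2 or 4 or Pdgfrβ-KO replicates 1, 2 or 3 was left out.

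Fcgr4, an activating receptor of monocytes and macrophages, was the scarcest of the set. It had 167, 29, 112 and 76 normalized counts in Pdgfrβ-KO libraries, against 31, 40, 73 and 53 in 12-month controls. Pdgfrβ-KO replicate 2 lay below every control while the other 3 lay above every control. The log2 fold change was 0.77 ± 0.47 with an interval of −0.26 to 1.80 (limma adjusted p = 0.322), so neither no change nor a rise of the size seen in Fcgr1 fell outside it. Without Pdgfrβ-KO replicate 2 the log2 fold change was 1.25 (adjusted p = 0.0533) and without Pdgfrβ-KO replicate 1 it was 0.42 (0.636).

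Fcgr2b, the inhibitory receptor, had 3102, 1962, 2614 and 2293 normalized counts in Pdgfrβ-KO libraries, against 1163, 1210, 1551 and 1421 in 12-month controls. No libraries overlapped, and the mean was 1.86 times as high in Pdgfrβ-KO SVF (2493 ± 486 in Pdgfrβ-KO and 1336 ± 182 in 12-month controls, SD, n = 4 each). In log2 the change was 0.89 ± 0.15 (95% interval 0.56 to 1.22, limma adjusted p = 0.00511).

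Fcer1g, the shared signalling chain, had 1749, 1694, 1265 and 937 normalized counts in Pdgfrβ-KO libraries, against 555, 837, 690 and 716 in 12-month controls. Replicates 1 and 2 were the highest of the Pdgfrβ-KO libraries and replicate 4 came closest to the controls. Fcer1g thus had a log2 fold change of 0.98 ± 0.20 (95% interval 0.55 to 1.42, limma adjusted p = 0.0117).

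Fcgrt, the recycling receptor, had 20528, 23135, 12466 and 10963 normalized counts in Pdgfrβ-KO libraries, against 8307, 10579, 7225 and 8627 in 12-month controls. The Pdgfrβ-KO libraries fell in a high pair, replicates 1 and 2, and a pair just above the highest control, replicates 3 and 4. The high pair also had the lower estimated depth, 13.78 and 15.6 M counts, against 16.89 and 19.97 M in replicates 3 and 4. The part of depth in this split was not tested. The log2 fold change was 0.89 ± 0.23 (95% interval 0.38 to 1.40, limma adjusted p = 0.0361). The call was lost, with an adjusted p of 0.0699 to 0.104, when any of 12-month control replicates 1, 3 or 4 or Pdgfrβ-KO replicates 1 or 2 was left out. Only 3 of the 6 genes were called when 12-month control replicate 1 or 4 or Pdgfrβ-KO replicate 1 or 2 was left out.

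**Figure D2:**
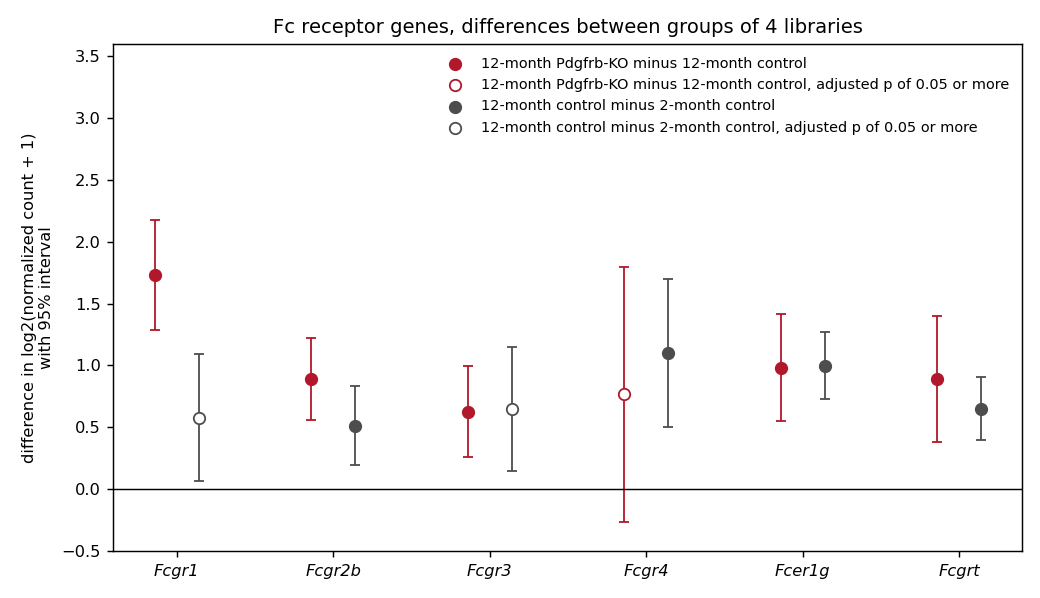
Difference between groups in log2(normalized count + 1) on the y axis, with the 95% interval as the bar, for each of the 6 genes (x axis): 12-month Pdgfrβ-KO minus 12-month control in red and 12-month control minus 2-month control in grey, 4 libraries a group. Open points had an adjusted p of 0.05 or more; Fcgr1 in Pdgfrβ-KO stood at 1.74 and the interval of Fcgr4 in Pdgfrβ-KO reached below 0.

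The second question was how the same genes differed with age in controls. Of the 6 genes, 4 were higher in 12-month than in 2-month SVF (Fcgr2b, Fcgr4, Fcer1g and Fcgrt), 0 were lower, and Fcgr1 and Fcgr3 did not pass the test. Of 16399 tested genes, 11.3% were called higher. In Fcgr4, Fcer1g and Fcgrt all 12-month controls lay above all 2-month controls, which was so for 12.3% of tested genes. The median log2 fold change of the 6 was 0.65, against −0.01 over all tested genes.

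Fcer1g had 555, 837, 690 and 716 normalized counts in 12-month controls, against 358, 320, 327 and 383 in 2-month controls. The younger libraries lay close together and well below the older ones, with a ratio of means of 2.02. The log2 fold change was 1.00 ± 0.13 (95% interval 0.73 to 1.27, limma adjusted p = 0.000267).

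Fcgrt had 8307, 10579, 7225 and 8627 normalized counts in 12-month controls, against 5603, 4982, 5429 and 5964 in 2-month controls. The groups did not overlap, and the mean was 1.58 times as high at 12 months. In log2 the change was 0.65 ± 0.12 (95% interval 0.40 to 0.90, limma adjusted p = 0.00239).

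Fcgr4 had 31, 40, 73 and 53 normalized counts in 12-month controls, against 20, 19, 21 and 26 in 2-month controls. Its level was low at both ages, yet no libraries overlapped, and the ratio of means was 2.29. In log2 the change was 1.10 ± 0.28 (95% interval 0.50 to 1.70, limma adjusted p = 0.0147).

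Fcgr2b had 1163, 1210, 1551 and 1421 normalized counts in 12-month controls, against 709, 1179, 1012 and 884 in 2-month controls. One 12-month library, replicate 1 at 1163, lay below the highest 2-month library, so the groups overlapped. The log2 fold change was 0.51 ± 0.15 (95% interval 0.19 to 0.83, limma adjusted p = 0.0266). The call was lost, with an adjusted p of 0.058 to 0.0745, when any of 2-month control replicates 1 or 4 or 12-month control replicates 3 or 4 was left out.

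Fcgr1 had 49.8, 56.4, 93.9 and 67.2 normalized counts per kilobase of exon in 12-month controls, against 27.8, 51.4, 50.6 and 49.1 in 2-month controls, and the groups overlapped through the lowest 12-month library. Its log2 fold change was 0.58 ± 0.24 (95% interval 0.06 to 1.09, limma adjusted p = 0.0958). Fcgr3 had 520, 766, 956 and 779 normalized counts in 12-month controls, against 288, 547, 641 and 489 in 2-month controls. Its log2 fold change was 0.65 ± 0.23 (95% interval 0.14 to 1.15, limma adjusted p = 0.0631), with overlapping groups. In both genes the 2-month library with the lowest count was replicate 1. Without 2-month control replicate 1 the log2 fold change was 0.41 for Fcgr3 (adjusted p = 0.134) and 0.36 for Fcgr1 (0.222). Fcgr3 passed the test without 2-month control replicate 3 (adjusted p = 0.0416) or without 12-month control replicate 1 (0.0273).

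The Pdgfrβ-KO mice differed from the 2-month controls in both age and genotype, so the values are set side by side with no test. The ratio of the mean in Pdgfrβ-KO SVF to the mean in 2-month SVF was 4.91 for Fcgr1, 4.47 for Fcgr4, 4.07 for Fcer1g, 3.05 for Fcgrt, 2.64 for Fcgr2b and 2.33 for Fcgr3. In all 6 genes the groups did not overlap. The share of all genes without overlap was not computed for these groups, so this count cannot be weighed.

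Activating receptors and the inhibitory receptor can act on the same cell, so their ratios within a library were also described. In bulk SVF such a ratio also mixes cell types, such as B cells with Fcgr2b and NK cells with Fcgr3. It is therefore not a ratio within a cell. The ratio of Fcgr1 to Fcgr2b normalized counts was 0.216, 0.236, 0.241 and 0.223 in Pdgfrβ-KO libraries, against 0.111, 0.121, 0.157 and 0.122 in 12-month controls. The Pdgfrβ-KO values were close together and all above the controls, with means of 0.229 ± 0.011 in Pdgfrβ-KO libraries and 0.128 ± 0.020 in 12-month controls (SD, n = 4 each). In 2-month controls the same ratio was 0.102, 0.113, 0.129 and 0.144, a range that overlapped with 12-month controls. The ratio of Fcgr3 to Fcgr2b averaged 0.466 in Pdgfrβ-KO libraries, 0.561 in 12-month controls and 0.514 in 2-month controls, with overlap in both comparisons. The ratio of Fcgr4 to Fcgr2b averaged 0.0362 in Pdgfrβ-KO libraries, 0.0360 in 12-month controls and 0.0236 in 2-month controls, again with overlap.

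**Figure D3:**
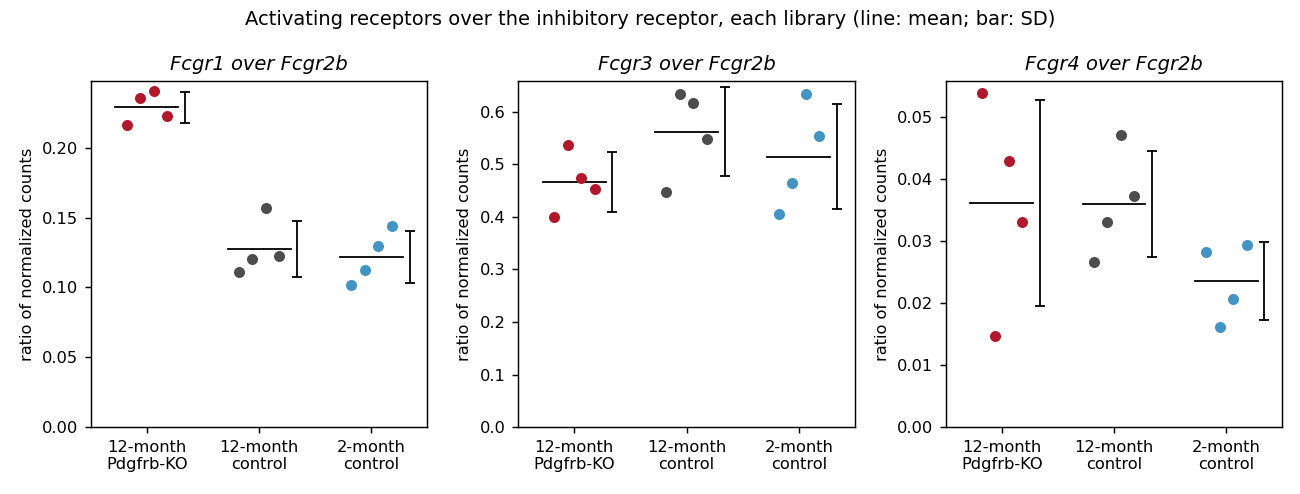
Ratio of the normalized counts of each activating receptor to those of Fcgr2b (y axis, from 0) in each library of the 3 groups (x axis); the line is the mean and the bar the SD. Only the Fcgr1 ratio separated the Pdgfrβ-KO libraries (0.216 to 0.241) from the 12-month controls (0.111 to 0.157).

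The activating receptors were also set against their shared chain. The sum of Fcgr1, Fcgr3 and Fcgr4 over Fcer1g averaged 1.35 ± 0.37 in Pdgfrβ-KO libraries, 1.40 ± 0.31 in 12-month controls and 1.84 ± 0.60 in 2-month controls (SD, n = 4 each). Neighbouring groups overlapped, and the difference of 12-month minus 2-month controls was −0.43. These are ratios of counts that are not divided by exon length, so they compare libraries and not molecules.

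Most macrophage markers were also higher in both comparisons. Of 12 listed markers, 9 were higher in Pdgfrβ-KO SVF than in 12-month controls and 9 were higher in 12-month than in 2-month controls, and 0 were lower in either. Their summed normalized counts were 68075 to 115938 in Pdgfrβ-KO libraries, 34082 to 47582 in 12-month controls and 16884 to 24183 in 2-month controls, and none of the 12 was at 0. The mannose receptor gene Mrc1 averaged 9041 in Pdgfrβ-KO and 3468 in 12-month controls (log2 fold change 1.39, limma adjusted p = 0.000667). The haemoglobin scavenger receptor gene Cd163 averaged 7104 in Pdgfrβ-KO and 2779 in 12-month controls (1.38, adjusted p = 0.000792). In the comparison of ages, Cd163 averaged 2779 in 12-month and 831 in 2-month controls (1.76, adjusted p = 0.00019), whereas Mrc1 averaged 3468 in 12-month and 2572 in 2-month controls (0.46, adjusted p = 0.106). The part of macrophage number in the receptor values was not tested.

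Relative to the mean log2 level of these 12 markers, the differences of all 6 genes shrank or turned negative in both comparisons. This mean was 12.18 in Pdgfrβ-KO libraries, 11.14 in 12-month controls and 10.28 in 2-month controls on the log2 scale. After it was subtracted library by library, the difference of Pdgfrβ-KO minus 12-month control was 0.70 for Fcgr1 and −0.05 for Fcer1g. It was −0.15 for both Fcgr2b and Fcgrt, −0.27 for Fcgr4 and −0.41 for Fcgr3, and in all 6 genes the groups overlapped. For 12-month minus 2-month controls it was 0.24 for Fcgr4, 0.14 for Fcer1g, −0.21 for Fcgrt, −0.22 for Fcgr3 and −0.28 for Fcgr1, with overlap. Fcgr2b alone had no overlap between the ages on this scale, at −0.98 to −0.62 in 12-month controls and −0.57 to −0.22 in 2-month controls, a difference of −0.35.

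**Figure D4:**
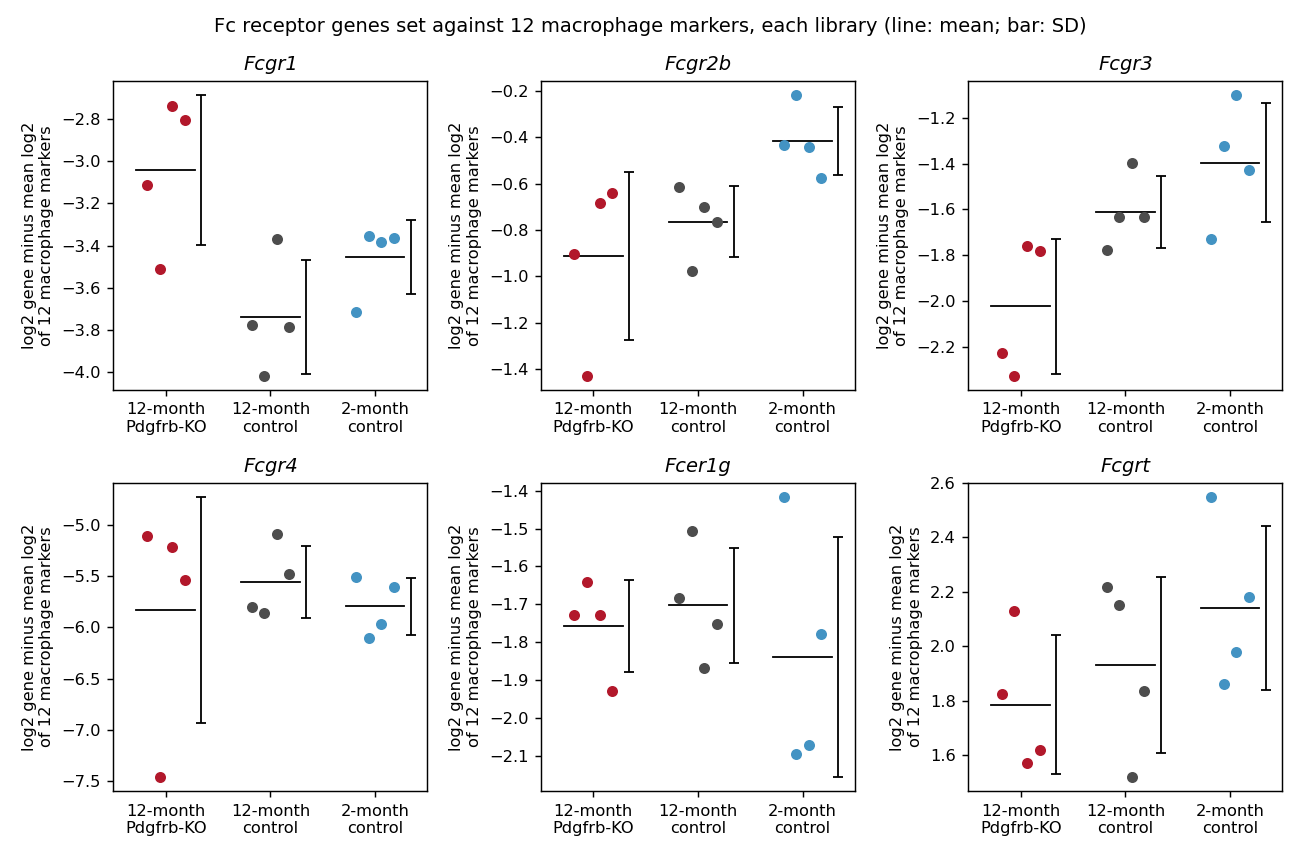
Log2 normalized count of each gene minus the mean log2 normalized count of 12 macrophage markers (y axis, log2 units, a separate range in each panel) in each library of the 3 groups (x axis); the line is the mean and the bar the SD. Fcgr1 averaged −3.04 in Pdgfrβ-KO and −3.74 in 12-month controls, and the lowest Fcgr4 point was Pdgfrβ-KO replicate 2 at −7.46.

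Markers of other carriers moved less uniformly. Of 4 tested neutrophil markers, 4 were higher in Pdgfrβ-KO SVF and 0 were called between the ages by limma (0 also at an unadjusted p under 0.05), with sums of 861 to 1630 in Pdgfrβ-KO libraries, 204 to 431 in 12-month controls and 258 to 346 in 2-month controls. S100a9, a calcium-binding protein of neutrophils and monocytes, had 711, 485, 253 and 298 normalized counts in Pdgfrβ-KO libraries, against 147, 48, 96 and 61 in 12-month controls (log2 fold change 2.31, limma adjusted p = 0.00428). The defining neutrophil gene Ly6g stayed at 0 to 8 normalized counts in Pdgfrβ-KO libraries and 0 to 1 in 12-month controls, and was not tested. Of 5 mast cell markers, 5 were higher in 12-month than in 2-month controls, with sums of 6847 to 11480 in Pdgfrβ-KO libraries, 4395 to 8542 in 12-month controls and 2035 to 3088 in 2-month controls, while in Pdgfrβ-KO SVF 0 were higher and Kit was lower. Of 4 monocyte markers 2 were higher in each comparison, with sums of 3842 to 5281 in Pdgfrβ-KO libraries, 2140 to 3162 in 12-month controls and 1432 to 2262 in 2-month controls. B cell markers, for a cell type that carries Fcgr2b, had 1 of 4 higher in Pdgfrβ-KO SVF and 0 of 4 called with age by limma (0 also at an unadjusted p under 0.05), with sums of 13174 to 22733 in Pdgfrβ-KO libraries, 10456 to 15510 in 12-month controls and 8056 to 14312 in 2-month controls. NK cell markers had 0 of 5 called in Pdgfrβ-KO SVF by limma (1 at an unadjusted p under 0.05, Gzma) and 2 of 5 higher with age, with sums of 652 to 882 in Pdgfrβ-KO libraries, 687 to 1212 in 12-month controls and 744 to 825 in 2-month controls. Endothelial markers, for a cell type that carries Fcgrt, had 0 of 5 higher and 1 of 5 lower in each comparison, with sums of 27992 to 39715 in Pdgfrβ-KO libraries, 38882 to 66401 in 12-month controls and 51129 to 70029 in 2-month controls. Ptprc, the pan-leukocyte gene, was not called in either comparison (log2 fold change 0.04 in Pdgfrβ-KO and −0.34 with age). Mature adipocyte markers had 3 of 4 higher with age (Lep, Retn and Adipoq) and 1 of 4, Retn, lower in Pdgfrβ-KO SVF, with sums of 684 to 1280 in Pdgfrβ-KO libraries, 951 to 1592 in 12-month controls and 591 to 686 in 2-month controls. Dendritic cell markers had 2 of 6 higher and 1 lower with age, and 0 of 6 higher and 1 lower in Pdgfrβ-KO SVF. Among them Itgax, an integrin gene also found in macrophages, was higher with age (log2 fold change 1.40, adjusted p = 0.000399) and lower in Pdgfrβ-KO SVF (−1.23, adjusted p = 0.01). Their sums were 1554 to 2030 in Pdgfrβ-KO libraries, 1704 to 2955 in 12-month controls and 1585 to 1673 in 2-month controls. Fibroblastic progenitor markers had 1 of 5 higher and 3 lower in Pdgfrβ-KO SVF, and 3 of 5 higher and 1 lower with age, with sums of 271258 to 482259 in Pdgfrβ-KO libraries, 220069 to 302342 in 12-month controls and 324711 to 401056 in 2-month controls. Col3a1, the gene higher in Pdgfrβ-KO SVF and the gene lower with age, made up most of these sums. Its mean was 316418 in Pdgfrβ-KO libraries, 178967 in 12-month controls and 340586 in 2-month controls. T cell markers had 0 of 4 called in Pdgfrβ-KO SVF by limma (0 also at an unadjusted p under 0.05) and 1 of 4, Cd4, lower with age. The part of these cell types in the receptor values was not tested.

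The ligands of the receptors are IgG molecules, whose constant genes are transcribed by B lineage cells. With Pdgfrβ-KO, 1 of 4 IgG constant genes was higher, with a median log2 fold change of 1.67 over the 4. Ighg1 had 1044, 429, 669 and 1517 normalized counts in Pdgfrβ-KO libraries, against 35, 46, 152 and 239 in 12-month controls. All Pdgfrβ-KO libraries lay above all controls (log2 fold change 3.21 ± 0.58, limma adjusted p = 0.00648). Ighg2b had 2377, 1278, 1619 and 6367 in Pdgfrβ-KO libraries, against 613, 723, 2400 and 1288 in 12-month controls, and was not called (adjusted p = 0.181), and neither was Ighg3 (adjusted p = 0.0568).

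With age, 3 of 4 IgG constant genes were higher and Ighg3 was not called, with a median of 2.74. Ighg2c, the constant gene of the IgG2c subclass of C57BL/6 mice, in place of which other strains carry IgG2a, had 452, 467, 1929 and 2109 normalized counts in 12-month controls, against 148, 22, 28 and 22 in 2-month controls. The groups did not overlap (log2 fold change 4.63 ± 0.79, limma adjusted p = 0.0058). Ighg2b had a log2 fold change of 3.13 (adjusted p = 0.011) and Ighg1 of 2.35 (adjusted p = 0.0237). The part of strain origin at the immunoglobulin locus was not tested.

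Among other Fc receptors, 2 of 12 tested were higher in Pdgfrβ-KO SVF and 0 were lower. Fcrls, an Fc receptor-like gene of macrophages and microglia, had 3110, 3976, 2456 and 1713 normalized counts in Pdgfrβ-KO libraries, against 771, 827, 860 and 1067 in 12-month controls. No libraries overlapped, and the log2 fold change of 1.62 ± 0.22 (limma adjusted p = 0.0016) was close to that of Fcgr1. Pigr, the polymeric immunoglobulin receptor, was also higher (0.86, adjusted p = 0.0433). Among those not called were Fcrla (0.64, adjusted p = 0.0728), a B cell gene, and Fcrlb (1.48, adjusted p = 0.0778), at a mean of 18.5 in Pdgfrβ-KO libraries. With age, 3 of 11 tested were higher and 0 were lower. They were Fcer1a and Ms4a2, the alpha and beta subunits of the IgE receptor that Fcer1g completes, and Fcrl5, a B cell receptor. Fcer1a averaged 80.8 in 12-month and 11 in 2-month controls (log2 fold change 2.76, adjusted p = 0.000205) and Ms4a2 averaged 36.3 in 12-month and 13.8 in 2-month controls (1.38, adjusted p = 0.0167). In Pdgfrβ-KO SVF the log2 fold change of Fcer1a was 0.30 (adjusted p = 0.497) and that of Ms4a2 0.01 (adjusted p = 0.992).

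Most of the kinases and adaptors downstream of the gamma chain did not pass the test. Of 16 ITAM signalling genes, 3 were higher in Pdgfrβ-KO SVF, 0 were lower and 13 were not called, with a median log2 fold change of 0.30. Tyrobp, which encodes DAP12, the other main ITAM adaptor of myeloid cells, had 2707, 2094, 1988 and 1368 normalized counts in Pdgfrβ-KO libraries, against 791, 1245, 1105 and 1274 in 12-month controls. The groups did not overlap (log2 fold change 0.87 ± 0.21, limma adjusted p = 0.0256). Card9, an adaptor that acts after Syk, was also higher (0.80, adjusted p = 0.0342). Syk itself averaged 7593 in Pdgfrβ-KO and 5890 in 12-month controls (0.35, adjusted p = 0.242), and Btk averaged 1125 in Pdgfrβ-KO and 825 in 12-month controls (0.45, adjusted p = 0.0951). With age, 3 of 16 were higher, namely Tyrobp (1.20, adjusted p = 0.000171), Fgr (0.73, adjusted p = 0.00454) and Lat2 (0.81, adjusted p = 0.00694), with a median of 0.13.

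The inhibitory side was likewise mixed. Of 11 inhibitory signalling genes, 2 were higher in Pdgfrβ-KO SVF and 0 were lower, with a median of 0.24. Pirb, an inhibitory receptor for MHC class I, had 1554, 1560, 1149 and 1304 normalized counts in Pdgfrβ-KO libraries, against 615, 696, 807 and 787 in 12-month controls (log2 fold change 0.93 ± 0.13, limma adjusted p = 0.00203). Dok3, an inhibitory adaptor, was higher by 0.69 (adjusted p = 0.00707). Inpp5d, the SHIP-1 gene that Fcgr2b signals through, averaged 3471 in Pdgfrβ-KO and 3069 in 12-month controls (0.17, adjusted p = 0.578). With age, 5 of 11 were higher and 1 was lower, with a median of 0.27. Clec12a (1.30, adjusted p = 0.000452), Sirpa (0.83, adjusted p = 0.000547) and Pirb (0.72, adjusted p = 0.00112) rose, and Inppl1, the SHIP-2 gene, fell by 0.87 (adjusted p = 0.000153).

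**Figure D5:**
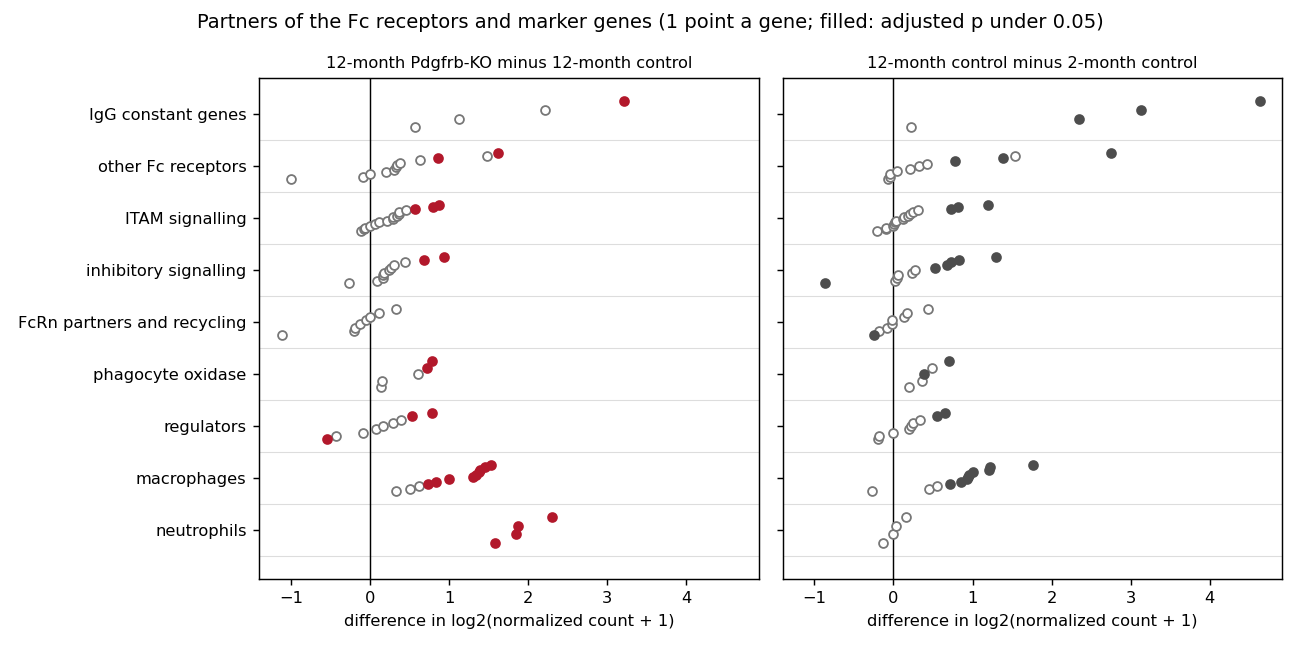
Difference in log2(normalized count + 1) (x axis) of every tested gene of 7 lists of Fc receptor partners and of the macrophage and neutrophil marker lists (y axis), for 12-month Pdgfrβ-KO minus 12-month control (left) and 12-month control minus 2-month control (right); filled points had an adjusted p under 0.05. In Pdgfrβ-KO 3 of 16 ITAM signalling genes and 9 of 12 macrophage markers were filled to the right of 0.

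The partners of FcRn were counted in the same way. Of 8 genes for its partner chain and for endosomal recycling, 0 were called in Pdgfrβ-KO SVF by limma at an adjusted p under 0.05, and 1, Myo5b, had an unadjusted p under 0.05 (0.0318). B2m, the chain that FcRn needs to leave the endoplasmic reticulum, averaged 24684 in Pdgfrβ-KO and 27028 in 12-month controls (log2 fold change −0.13, adjusted p = 0.517). With age 0 were higher and Rab5a, a small GTPase of early endosomes, fell by 0.25 (adjusted p = 0.0462), while B2m had a log2 fold change of 0.13 (adjusted p = 0.405).

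Receptor engagement in phagocytes feeds the oxidase. Of its 5 listed subunits, 2 were higher in Pdgfrβ-KO SVF and 0 were lower. Ncf1, the p47-phox subunit, had 3245, 2795, 2791 and 2918 normalized counts in Pdgfrβ-KO libraries, against 1483, 1467, 1876 and 2062 in 12-month controls (log2 fold change 0.78 ± 0.13, limma adjusted p = 0.00439). Cyba stood at the threshold (0.61, adjusted p = 0.0513). With age 2 of 5 were higher, Cyba (0.70, adjusted p = 0.00108) and Ncf4 (0.38, adjusted p = 0.0354).

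Of 9 listed regulators of these receptors, Spi1 and Il10ra were higher and Irf1 was lower in Pdgfrβ-KO SVF. Spi1, which encodes PU.1, had 2798, 2602, 1881 and 1974 normalized counts in Pdgfrβ-KO libraries, against 1122, 1365, 1283 and 1570 in 12-month controls (log2 fold change 0.78 ± 0.15, limma adjusted p = 0.0104). Il10ra, the receptor of interleukin 10, was higher by 0.53 (adjusted p = 0.0222). Irf1, an interferon-induced factor, had 10534, 12053, 9274 and 8512 in Pdgfrβ-KO libraries, against 14766, 13848, 14768 and 14711 in 12-month controls, and fell by 0.54 (adjusted p = 0.0236). With age Spi1 (0.55, adjusted p = 0.00441) and Cebpa (0.65, adjusted p = 0.00113) were higher and 0 of 9 were lower.

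Across the 12 libraries the genes were correlated to differing degrees, given as a description since all points share the groups. Pearson's r of log2(normalized count + 1) was highest for Fcgr1 with Fcgr2b (0.977) and for Fcer1g with Fcgrt (0.971). Next came Fcgr3 with Fcgr2b (0.932), with which it shares sequence, and Fcgr3 with Fcgr1 (0.923). The lowest was Fcgr4 with Fcgrt (0.62). Among Pdgfrβ-KO libraries, Fcgr1, Fcgr2b, Fcgr3 and Fcgr4 were highest in replicates 1 and 3, whereas Fcer1g and Fcgrt were highest in replicates 1 and 2. Of 11177 genes with a mean of at least 100, those most like Fcgr1 were Mrc1 (r = 0.991), F13a1 (0.987), the A chain of coagulation factor XIII, and Ms4a6d (0.985). Those most like Fcgr2b were the scavenger receptor gene Msr1 (0.982), Ms4a6d (0.977) and Wwp1 (0.975). Fcgr3 was followed most closely by the lectin genes Clec4a1 (0.977) and Clec4a3 (0.967) and by Kdelc2 (0.955). Fcgr4 was followed by the chemokine receptor gene Ccr2 (0.905) and the immunoglobulin light chain gene Iglc1 (0.898). Fcer1g was followed by 3 genes of lysosomal enzymes, Gusb (0.994), Ctsz (0.992) and Dnase2a (0.991), and Fcgrt by Msrb1 (0.992), Tmem242 (0.992) and Reep5 (0.992).

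The mice were of mixed strain background, and the cluster on chromosome 1 lies near genes known to differ between strains. Ifi202b, an interferon-inducible gene of that kind on the same chromosome, had 2, 2342, 147 and 1734 normalized counts in Pdgfrβ-KO libraries and 92, 10, 3 and 0 in 12-month controls, against 1548, 2580, 2688 and 1798 in 2-month controls. The 2-month libraries were all high, the 12-month controls all low, and the Pdgfrβ-KO libraries split, with replicates 2 and 4 high. Those are also the replicates with the lower counts of Fcgr1, Fcgr2b, Fcgr3 and Fcgr4 among the Pdgfrβ-KO libraries. Fcer1g, in the same cluster, did not follow this order, with 1749, 1694, 1265 and 937 in replicates 1 to 4. Fcgr1 is on another chromosome. A link between Ifi202b and these counts was not tested. Mndal, a related gene of the same region, had 3107, 1596, 3514 and 2237 in Pdgfrβ-KO libraries and 3216, 2487, 3118 and 3233 in 12-month controls, against 114, 109, 144 and 125 in 2-month controls. Of the other tested genes that start within 5 Mb of the cluster, 33.3% of 108 were called with age, 22 higher and 14 lower, against 22.7% of all tested genes, and 12.3% of 106 were called in Pdgfrβ-KO, 7 higher and 6 lower, against 9.42%. For the 4 members on chromosome 1, the strain origin of the region and age cannot be told apart in the comparison of ages. The part of strain origin in the comparison of Pdgfrβ-KO with 12-month controls was not tested.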

How the data were processed

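Inguinal SVF of 12 mice gave 1 library each, made with a directional kit from polyadenylated RNA. Per the labels, the authors trimmed reads with Trim Galore 0.6.0 and cutadapt, mapped them to GRCm38 with STAR 2.7.0e and normalized counts with DESeq2 1.26.0. The deposited values are scores, that is, counts divided by a size factor and rounded by the authors, and the program that counted reads, with its use of strand, is not given in the sources used here. Controls of both ages share 1 table, and Pdgfrβ-KO libraries share another with the 12-month controls, whose values were equal in 100% of genes between the tables. In the table of ages 27 gene names had been turned into dates, so names were taken from the other, and 0 other columns of values per sample were present.

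limma 3.58.1 (R 4.3.3, trend and robust estimation) was applied to log2(value + 1), each comparison on its own 8 libraries, over genes at 10 or more in 4 or more libraries (16399 for age, 16344 for Pdgfrβ-KO). Fold changes of low genes are understated on this scale. The test was tried on simulated data with known changes. Because the deposited values are rounded, the size factors and counts behind them were estimated from gaps in the low values, and the last Pdgfrβ-KO library (replicate 4) also allowed a factor and a depth 2 times as large. Coordinates and exon lengths come from GENCODE vM21, in which 55450 of the identifiers were found, and promoters from RefSeq. Tables and figures used pandas 2.3.3, numpy 2.4.6, matplotlib 3.10.9 and scipy 1.17.1 in Python 3.11.15. The genes and lists were chosen with earlier results of these data known. By rule, all 6 genes were named, with up to 4 called and 2 uncalled genes of each list in a comparison, Pdgfrb, neighbours of the cluster and the 3 genes most like each member, except a few that are not reported here. Alternatives were pseudocounts of 0.5 and 5, other filters, scalings and variance models, weights, a replicate block, 1 fit over 12 libraries, each library left out in turn and, chosen after seeing the data, libraries thinned to the lowest depth.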

Additional observations from a re-analysis of the deposited data

Results flagged for a closer look

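The counts of each of the 6 genes were checked for 1 library standing apart in each of the 3 groups, which makes 18 groups of 4 libraries. In 1 of them a library stood apart. Fcgr1 had 72 normalized counts in 2-month control replicate 1, against 133, 131 and 127 in the others, and the gap to the nearest was 0.902 of the range, past Dixon's 95% limit for 4 values. Chance sets about 1 in 20 groups apart. The same library was the lowest of its group for Fcgr2b (709) and Fcgr3 (288), and not for Fcgr4, Fcer1g or Fcgrt. Without it the log2 fold change of Fcgr1 with age was 0.36 (limma adjusted p = 0.222).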

How the results depend on the processing

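Over the 19 alternatives of each comparison, 227 results for the 6 genes were computed, of which 202 kept their direction and their side of the threshold, 21 lost the call, 4 gained it and 0 reversed. In Pdgfrβ-KO, Fcgr1, Fcgr2b and Fcer1g were called in 19 of 19 alternatives, Fcgr3 in 11, Fcgrt in 12 and Fcgr4 in 0 (adjusted p 0.0533 to 0.636). With age, Fcer1g and Fcgrt were called in 19 of 19, Fcgr4 in 17 of 18, Fcgr2b in 14, Fcgr3 in 3 and Fcgr1 in 1. Fcgr4 had no value with age where a mean of at least 50 was asked for.

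Without trend and robust estimation 3 of the 6 genes were called in Pdgfrβ-KO, against 5. With no filter on low values Fcgrt had an adjusted p of 0.0551 there. With each library left out in turn, 3 to 5 of the 6 were called in either comparison, 859 to 1878 of all genes in Pdgfrβ-KO (1539 with all libraries) and 2356 to 3961 with age (3727 with all libraries). One fit over 12 libraries called 2600 genes in Pdgfrβ-KO, and in it Fcgr3 in Pdgfrβ-KO (adjusted p = 0.0654) and Fcgr4 with age (0.0929) were not called. The cause of these changes was not tested. Scalings moved the median of all genes by under 0.1 on the log2 scale and changed 0 calls of the 6. Libraries thinned to the lowest depth, chosen after seeing the data, gave 5 calls in Pdgfrβ-KO and 4 with age.

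Whether replicate numbers pair the samples was left undecided, because the matches were mixed. Deviations of same-numbered libraries correlated at −0.216 to 0.157 between the ages and −0.0175 to 0.375 between Pdgfrβ-KO and controls. Between the ages only replicate 1 matched its own number best (0.157). Between Pdgfrβ-KO and controls, replicates 2 (0.375) and 3 (0.234) did so, and replicates 1 and 4 did not. The fit with the replicate block called 2380 genes in Pdgfrβ-KO (1539 without the block) and 3116 with age (3727 without the block). Among them were 5 of the 6 genes in Pdgfrβ-KO and 6 of the 6 with age. With age, Fcgr1 (limma adjusted p = 0.0453) and Fcgr3 (0.00356) gained the call.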
